A study of Mus musculus with 36 samples.

Results

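The effect of adding a high dose of IL-6 to TNFα was examined in the mouse hypothalamus, by comparing 6 arrays of the TNF + IL-6 High group with 5 arrays of the TNF group, which makes 11 of the 36 arrays of the study. The members were chosen by their sample titles. Male C57BL/6 mice had received an intraperitoneal injection of 50 µl and were killed 5 h later, and hypothalamic RNA of each mouse was hybridised to 1 Affymetrix Mouse Gene 1.1 ST array. The TNF group had received 15 pg TNFα. The sample titles call it a low amount, although there was no other dose of TNFα. The TNF + IL-6 High group had received 15 pg TNFα together with 800 pg IL-6. In addition, the IL-6 High group had received 800 pg IL-6 alone, the TNF + IL-6 Low group 15 pg TNFα with 50 pg IL-6, and the Control group saline. The labels give no difference between the groups other than the injection. The study had 12 mice per group, of which 6 were used for arrays. The question was which hypothalamic genes differ when IL-6 is added to a fixed dose of TNFα.

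TNF replicate 4 was left out. Its log2 intensities had quartiles of 5.49 and 6.65, while the 11 arrays compared had quartiles of 3.99 to 4.17 and 7.34 to 7.51. With the other arrays it had a median correlation of 0.27. The array names of Control replicates 5 and 6 carry mouse numbers that the sample labels give to TNF + IL-6 High replicates 5 and 6. Both sources agree on the group, and the arrays were used under it. Markers of the hypothalamus were measured in both groups: 27 of 29 genes for hypothalamic neuropeptides and transcription factors were tested, and their mean log2 intensity was 6.83 to 7.15 in TNF and 6.38 to 7.22 in TNF + IL-6 High, lowest on TNF + IL-6 High replicate 2 and highest on its replicate 1.

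TNFα binds its receptors on many cells and activates NF-kB, a transcription factor held back by the inhibitor encoded by Nfkbia. IL-6 binds its receptor and gp130, which activates the kinase Jak1 and the transcription factor STAT3, and STAT3 turns on its own inhibitor Socs3. In the hypothalamus, both cytokines are known for fever, for loss of appetite and for effects on the neurons that control feeding, some through prostaglandins and the cells of the blood vessels.

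Adding IL-6 High to TNF changed 0 genes in either direction after adjustment. Among 15049 genes tested with limma, the smallest Benjamini-Hochberg adjusted p was 0.954 (0% of genes called). At an unadjusted limma p under 0.05, which chance alone would give for 752.45 genes, 161 genes were higher (1.07%) and 456 were lower (3.03%). Past a fold of 1.5 between group means, 7 genes were higher (0.0465%) and 6 lower (0.0399%). All 6 TNF + IL-6 High arrays were above all 5 TNF arrays for 9 genes (0.0598%) and below them for 22 genes (0.146%). Log2 differences had a median standard error of 0.10. The replicates are separate mice, and the number of arrays limits the precision.

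The genes at the unadjusted threshold were mostly lower, 73.9% of them, and this direction depended on the scaling. The log2 difference was below 0 for 66% of all genes, with a median of -0.0383. With each array centred on its median, 30.7% of the genes at unadjusted p under 0.05 were lower, with 418 higher and 185 lower. With quantile normalization 60.7% were lower. The shift of genes differed by brightness. In the dimmest of 4 equal classes of genes by mean intensity, the median log2 difference was 0.00897, and 112 genes were higher and 68 lower at unadjusted p under 0.05. The median differences in the brighter classes were -0.0437, -0.0578 and -0.0456, and 29, 8 and 12 genes were higher there, against 137, 158 and 93 lower. TNF + IL-6 High replicate 5 deviated furthest, by medians of -0.0095, -0.0922, -0.145 and -0.16 from the dimmest to the brightest class. Without that array 222 genes were lower at this threshold, and without TNF + IL-6 High replicate 1 there were 960.

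**Figure D1:**
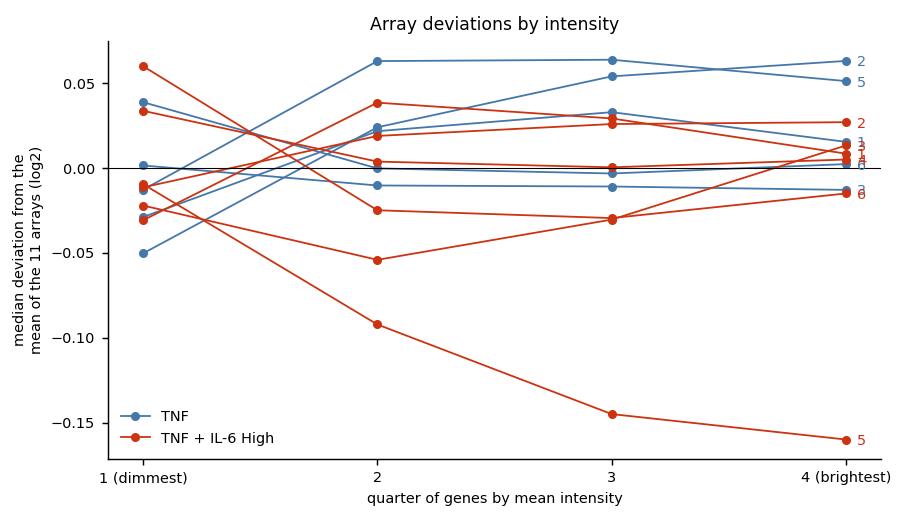
Median deviation of each of the 11 arrays from their common mean (log2, vertical axis) in 4 equal classes of genes from the dimmest to the brightest (horizontal axis); each line is an array, labelled with its replicate number. TNF + IL-6 High replicate 5 lies lowest in the 3 brighter classes, at -0.16 in the brightest.

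Among the genes higher in TNF + IL-6 High, Cebpe had the smallest p. Log2 intensities are given for TNF replicates 1, 2, 3, 5 and 6 and then for TNF + IL-6 High replicates 1 to 6. Cebpe, a transcription factor of granulocyte maturation, was measured at 4.38, 4.23, 4.79, 4.44 and 4.55 in TNF and at 4.60, 4.86, 4.83, 4.97, 5.41 and 4.98 on the TNF + IL-6 High arrays. The groups overlapped only in TNF replicate 3 and TNF + IL-6 High replicate 1. Cebpe had a log2 difference of 0.46 ± 0.12 (SE, limma adjusted p = 0.954). Piezo1, a mechanosensitive ion channel of vessels and other cells, was at 5.58, 5.44, 5.69, 5.43 and 5.69 and at 5.85, 5.98, 5.84, 5.95, 5.77 and 5.82. Its groups did not overlap, with a log2 difference of 0.30 ± 0.09 (SE). Pla2g2d, a secreted phospholipase A2, was at 4.71, 4.82, 4.81, 4.92 and 4.51 and at 5.02, 5.24, 5.11, 5.08, 5.00 and 5.09. Here too every TNF + IL-6 High array was above every TNF array, and the log2 difference was 0.33 ± 0.10 (SE). For Cebpe the difference had the same sign within each of the 4 letters, E to H, that open the array names. This follows by construction, since its overlapping arrays, TNF replicate 3 and TNF + IL-6 High replicate 1, carry different letters, F and E. For Piezo1 and Pla2g2d the same sign within each letter follows from groups that do not overlap. For Pirb, Umod and Zfhx3, named below, the sign was the same within 3 of the 4 letters. What the letters stand for is not stated.

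The other genes named in this direction differed by 0.26 to 0.42 on the log2 scale. Pirb, an inhibitory receptor for MHC class I, differed by 0.42 and Edn2, which encodes the vasoconstrictor endothelin 2, by 0.32. Col8a2, a collagen of basement membranes, ranged from 4.75 to 5.09 in TNF and from 4.86 to 5.77 in TNF + IL-6 High, where only replicate 2 lay within the TNF range. Zfhx3, a transcription factor known from the suprachiasmatic nucleus, ranged from 7.78 to 8.17 and from 7.99 to 8.53, a log2 difference of 0.29. Wdr83os differed by 0.40, Baat, an enzyme that conjugates bile acids, by 0.39, Umod, a protein known from the kidney, by 0.38, Dennd3 by 0.29 and Chrne, a nicotinic receptor subunit of muscle, by 0.26. The limma adjusted p was 0.954 for each of the 12 genes named in this direction. Cebpe, Pla2g2d, Pirb, Edn2, Col8a2, Baat, Umod and Chrne were in the dimmest class of genes, with mean log2 intensities of 3.54 to 5.48. In TNF the means of Edn2, Chrne, Baat and Umod were 4.01, 4.05, 4.15 and 4.19, so their signal was weak. Piezo1, Zfhx3 and Wdr83os were brighter than that class.

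Among the genes lower in TNF + IL-6 High, Smn1 had the smallest p. The next was Zfp354a, a zinc finger gene outside the naming rule that was named after its values were seen, with a log2 difference of -0.30 and groups that did not overlap. Smn1, needed to assemble spliceosomal particles, was at 6.44, 6.53, 6.20, 6.53 and 6.47 in TNF and at 6.20, 6.11, 6.11, 6.15, 5.95 and 6.04 on the TNF + IL-6 High arrays. TNF replicate 3 was the only TNF array that reached the range of the other group. Smn1 had a log2 difference of -0.34 ± 0.09 (SE, limma adjusted p = 0.954). Arpc5, a subunit of the Arp2/3 complex that branches actin, was at 8.93, 9.05, 8.80, 8.89 and 8.86 and at 8.63, 8.61, 8.72, 8.75, 8.55 and 8.75. The groups of Arpc5 did not overlap, nor did those of Ier3ip1, a protein of the endoplasmic reticulum, which ranged from 8.64 to 8.87 in TNF and from 8.30 to 8.58 in TNF + IL-6 High. The log2 differences were -0.23 ± 0.07 and -0.25 ± 0.07 (SE). Tchh, a structural protein of the hair follicle, differed by -0.38 and Mpp3, a membrane scaffold, by -0.37. Med4, a subunit of the Mediator complex, differed by -0.31, Nepro by -0.33 and Sla, an adaptor of lymphocyte receptors, by -0.35. Hacl1, a peroxisomal lyase, Mxi1, an antagonist of MYC, Dgkd, a diacylglycerol kinase, and Dnajc7, a cochaperone, differed by -0.28, -0.27, -0.25 and -0.23. TNF + IL-6 High replicate 5, which was low for bright genes in general, held the lowest value of Smn1, Ier3ip1, Arpc5, Hacl1, Sla, Dnajc7 and Mxi1. The part of its low values in these differences was not tested. The sign without that array cannot show it for Smn1, Ier3ip1 and Arpc5. The groups of Ier3ip1 and Arpc5 do not overlap, and those of Smn1 meet only at TNF replicate 3. Their differences therefore stay below 0 by construction.

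**Figure D2:**
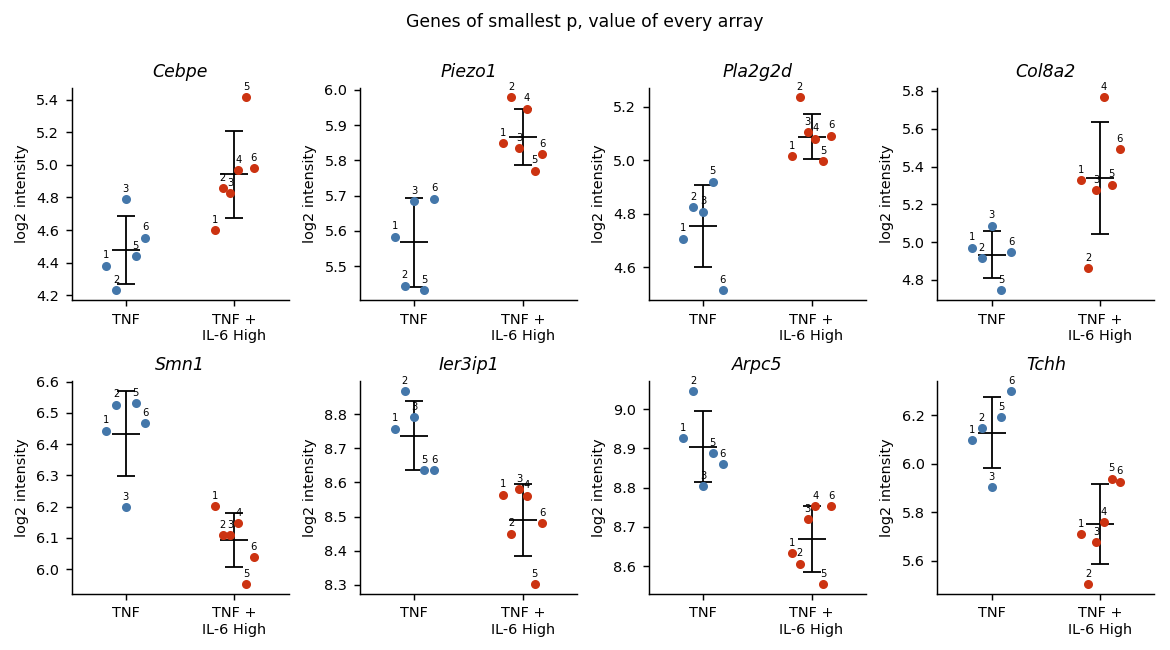
Log2 intensity (vertical axes) of 8 genes of small p on every TNF array (blue) and TNF + IL-6 High array (red), labelled with the replicate number; the bars give the mean and SD of 5 and 6 arrays. The groups do not overlap for Piezo1, Pla2g2d, Ier3ip1 and Arpc5.

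Of the 7 genes past a fold of 1.5 in the higher direction, Mirlet7a-2 and Mir204, which encode microRNAs, had the smallest p. MicroRNAs are short RNAs that repress messages pairing with their seed, bases 2 to 8. The microRNA genes were named after their values were seen. The mature sequences found for the 2 genes in RefSeq (GRCm38.p6) are shown with the seed in capitals, since the arrays measured the gene and not the mature form. For Mirlet7a-2 only a 3p form was at hand, so its 5p form and the seed of that form are not shown. Mirlet7a-2 lies on chr9:41536716-41536811 (plus strand) and Mir204 on chr19:22750605-22750672 (plus strand).
mmu-let-7a-2-3p: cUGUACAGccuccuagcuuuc
mmu-miR-204-5p: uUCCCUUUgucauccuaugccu
mmu-miR-204-3p: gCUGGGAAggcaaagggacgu
The seeds differ from each other, and 3 of the mature microRNAs in the table carry the seed of miR-204-5p.

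Mirlet7a-2 was measured at 3.82, 3.45, 4.00, 3.64 and 3.41 in TNF and at 3.62, 4.86, 4.43, 4.55, 4.65 and 4.64 on the TNF + IL-6 High arrays. TNF + IL-6 High replicate 1 was within the TNF range and the other 5 arrays were above it, which gave a log2 difference of 0.80 ± 0.23 (SE). Mir204 was at 5.13, 4.49, 5.45, 4.31 and 4.13 and at 4.73, 5.94, 5.84, 5.47, 5.86 and 5.33, with replicates 1 and 6 within the TNF range and a log2 difference of 0.83 ± 0.25 (SE). The limma adjusted p was 0.954 for both. Mir135b and Mir688, further microRNA genes of small p, had log2 differences of 0.47 and 0.55. Of 199 microRNA genes tested, 127 were higher and 72 lower, and 10 and 2 of them passed the unadjusted threshold, beside the 1.07% and 3.03% of all genes. Their median log2 difference was 0.0601, and 103 of them were in the dimmest class, where the other genes had a median of 0.00845. In IL-6 High against Control the median of the microRNA genes was -0.0524.

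The other genes past a fold of 1.5 are known from tissues beside the hypothalamus or from particular neurons. Gh, growth hormone of the anterior pituitary, was at 5.88, 4.99, 5.56, 6.83 and 9.17 in TNF and at 5.21, 7.99, 11.62, 5.01, 5.09 and 9.94 on the TNF + IL-6 High arrays. The high arrays were replicate 6 of TNF and replicates 2, 3 and 6 of TNF + IL-6 High. Prl, which encodes prolactin, was highest on the same replicates, at 6.27 in TNF and at 4.92, 8.56 and 6.73. The log2 difference was 0.99 ± 1.35 for Gh and 0.85 ± 1.13 for Prl (SE), so neither exceeded its standard error. Without TNF + IL-6 High replicate 3 the differences were 0.16 and 0.17. Cga, the common subunit of pituitary glycoprotein hormones, differed by 0.69. Tns1, an adaptor of focal adhesions, was at 7.13, 6.89, 8.77, 7.24 and 7.20 and at 7.19, 7.76, 8.86, 8.41, 9.56 and 8.03. TNF replicate 3 stood above the other TNF arrays for Tns1, and the log2 difference was 0.86 ± 0.41 (SE). Fthl17f, a ferritin-like gene named after its values were seen, differed by 0.59.

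Among the lower genes past this fold, Slc6a3, the dopamine transporter, was at 9.97, 9.40, 9.13, 10.35 and 8.02 in TNF and at 10.36, 9.96, 6.97, 8.22, 8.36 and 6.22 on the TNF + IL-6 High arrays. Replicates 1 and 2 of TNF + IL-6 High were at the level of TNF and the other 4 were lower than all TNF arrays but replicate 6. Slc6a3 had a log2 difference of -1.03 ± 0.62 (SE), and of -0.60 without TNF + IL-6 High replicate 6. Chrna6, a nicotinic receptor subunit of dopamine neurons, ranged from 5.15 to 7.23 and from 4.13 to 7.37, and Chrna5, another subunit, from 4.14 to 6.03 and from 3.64 to 5.16. They differed by -0.77, and -0.51 without TNF + IL-6 High replicate 6, and by -0.65, and -0.34 without TNF replicate 5. Slc17a7, a vesicular glutamate transporter, was at 6.48, 7.59, 6.26, 9.13 and 9.53 and at 5.30, 8.84, 6.33, 6.13, 5.85 and 8.44, a difference of -0.98 ± 0.61 (SE), and of -0.55 without TNF replicate 6. Neurod1, a transcription factor of granule neurons, and Cbln3, known from cerebellar granule cells, were at 8.44 and 8.57 on TNF replicate 2 and at most at 5.77 and 4.62 on the other TNF arrays. Their log2 differences of -0.72 and -0.60 were -0.11 and 0.22 without that array.

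**Figure D3:**
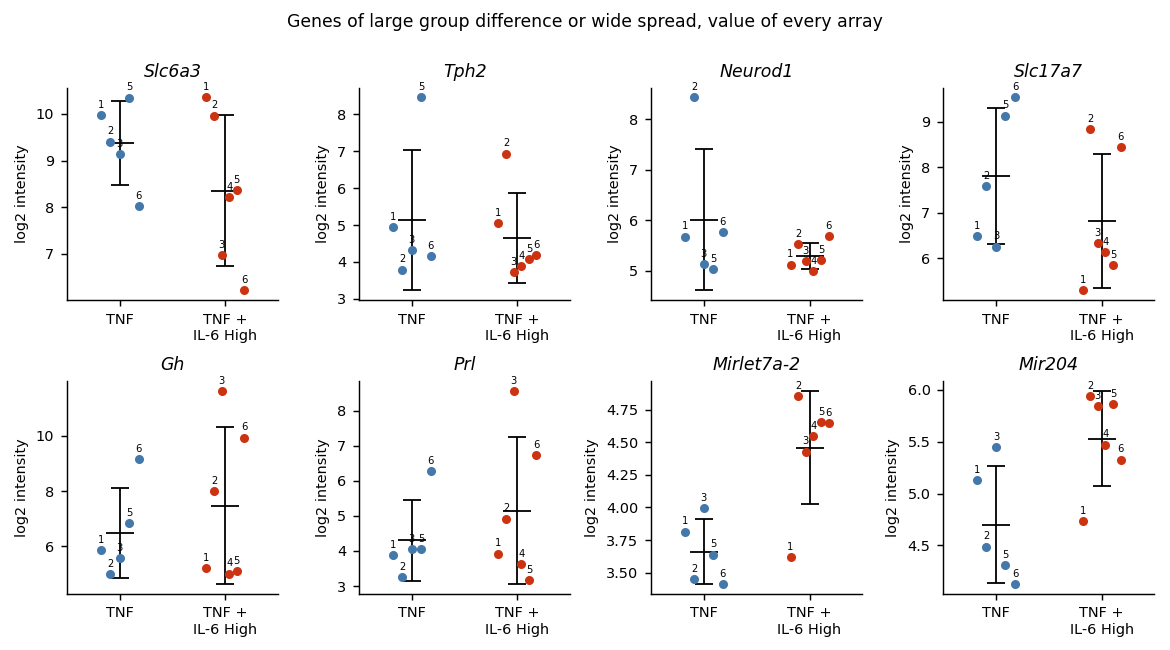
Log2 intensity (vertical axes) of 8 genes with a large group difference or a wide spread on every TNF array (blue) and TNF + IL-6 High array (red), labelled with the replicate number; the bars give the mean and SD of 5 and 6 arrays. Tph2 was at 8.47 on TNF replicate 5 and Neurod1 at 8.44 on TNF replicate 2, both far above the other TNF arrays.

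The pathways of both cytokines showed small differences. Of the 12 tested genes for IL-6 family receptors and the STAT3 pathway, 8 were higher and 4 lower, 0 with an unadjusted limma p under 0.05, and the median log2 difference was 0.0266. Jak1, the kinase bound to gp130, differed by -0.11 ± 0.06, Ptpn11, a phosphatase of the same pathway, by -0.11 ± 0.07, and Tyk2, another kinase of the family, by 0.13 ± 0.10 (SE). Of the 27 tested response genes of IL-6 and STAT3, 12 were higher and 15 lower, again 0 at the unadjusted threshold, with a median of -0.0084 beside -0.0383 over all genes. With 1 array left out both medians lay on both sides of 0, at -0.0257 to 0.051 and at -0.0483 to 0.0096.

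Socs3, the direct feedback inhibitor of IL-6 signalling, was at 4.69, 4.80, 4.97, 5.04 and 5.04 in TNF and at 5.35, 5.06, 4.61, 4.87, 5.32 and 5.16 on the TNF + IL-6 High arrays. Replicates 1, 2, 5 and 6 of TNF + IL-6 High were above all TNF arrays and replicate 3 was below them. Socs3 had a log2 difference of 0.15 ± 0.11 (SE), with a 95% interval of -0.07 to 0.37. In a two-sided exact permutation test over 462 arrangements p was 0.305, and 0.714 after adjustment over a family of 6 genes, where the smallest p possible is 0.00216. Socs1, a related inhibitor, differed by -0.16 and Hp, the acute phase protein haptoglobin, by 0.20 with 4.87 on TNF + IL-6 High replicate 2 as the highest value. The 250 bases before the start of Socs3 in RefSeq (GRCm38.p6, chr11:117969367-117969616, minus strand) are shown because they hold a match, in capitals, to the STAT motif TTCNNNGAA, which reads the same on both strands.
Socs3: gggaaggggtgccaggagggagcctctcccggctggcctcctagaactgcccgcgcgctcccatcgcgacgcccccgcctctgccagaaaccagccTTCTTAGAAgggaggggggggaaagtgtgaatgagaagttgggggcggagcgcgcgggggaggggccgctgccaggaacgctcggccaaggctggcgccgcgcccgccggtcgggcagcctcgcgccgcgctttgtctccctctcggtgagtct
The match begins 154 bases before the start. Such a match was found in 7.02% of the 32851 windows of this length in the table. Counted by gene, with a match at any of its starts, it was found in 7.24% of 11803 tested genes. By the same count 4 of 23 response genes with a window held it, Bcl6, Fgl2, Icam1 and Socs3. These genes had log2 differences of -0.02, 0.17, -0.13 and 0.15. A match is a description of the letters and not a site of binding.

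Among TNF receptors and adaptors, 5 genes were higher and 8 lower. Tnfrsf1b, the TNF receptor 2 gene, ranged from 4.83 to 5.17 in TNF and from 5.10 to 5.37 in TNF + IL-6 High, with a log2 difference of 0.22 ± 0.09 (SE). Traf2, an adaptor of both TNF receptors, ranged from 5.95 to 6.42 and from 5.68 to 5.98, with a difference of -0.30 ± 0.10 (SE). These were the genes of this list at an unadjusted limma p under 0.05, 1 in each direction, and their adjusted p was 0.954. Of all genes, 1.07% were higher and 3.03% lower at that unadjusted threshold. Of 24 tested genes of the TNF and NF-kB response, 12 were higher and 12 lower, 0 at that threshold, and the median was -0.00311. Nfkbia differed by 0.15, with an exact permutation p of 0.24. Tnf itself differed by -0.15, Csf1, a growth factor of macrophages, by 0.11, Rel, a subunit of NF-kB, by 0.11 and Tnip1, an inhibitor of the pathway, by -0.10.

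In the interferon response, 15 of 26 tested genes were higher and 11 lower, with a median of 0.022. Usp18, an interferon-induced inhibitor of its receptor, was at 4.34, 4.10, 4.74, 5.16 and 4.58 in TNF and at 4.89, 5.05, 4.58, 5.23, 5.18 and 5.01 on the TNF + IL-6 High arrays. Only TNF replicate 5 was above 4.74, and only TNF + IL-6 High replicate 3 was below it. The log2 difference was 0.41 ± 0.14 (SE, limma adjusted p = 0.954). Usp18 was the 1 gene of the list at an unadjusted limma p under 0.05, beside 1.07% of all genes higher and 3.03% lower. Oasl2 differed by 0.20 and Stat2, which carries the interferon signal, by -0.15. Of the 6 tested genes of MHC class II, 5 were higher, with a median of 0.0861, which was 0.0332 without TNF replicate 3 and 0.18 without TNF replicate 5, among them H2-Aa by 0.22 and H2-Eb1 by 0.15.

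Prostaglandin genes were 8 higher and 7 lower. Ptgfr, the receptor of prostaglandin F, ranged from 3.72 to 4.39 and from 4.32 to 4.57, with a log2 difference of 0.31 ± 0.12 (SE). Ptges2, a prostaglandin E synthase, differed by -0.28 ± 0.13 and Hpgd, which breaks prostaglandins down, by -0.19 ± 0.12 (SE). Among 20 glucocorticoid response genes 7 were higher and 13 lower, beside 66% of all genes lower. At the unadjusted threshold 0 of them passed, with Angptl4 at -0.15 and Hif3a at 0.17.

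Immediate early genes, which mark recent neuronal activity, were lower in 18 of 22 cases, beside 66% of all genes, with a median of -0.114. This rested on TNF replicate 6, where their mean was highest at 6.61, and the median was -0.00625 without it. Nr4a1 was at 8.12 on that array and at 6.61 to 6.82 on the other TNF arrays, against 6.40 to 6.85 in TNF + IL-6 High, and its log2 difference of -0.41 was -0.13 without it. Fos differed by -0.27 and Nr4a2 by -0.30. Of 17 clock genes 13 were lower, beside 66% of all genes, with a median of -0.0522, and 0.0106 without TNF replicate 6. Nr1d2, a repressor of the clock, differed by -0.16 ± 0.07 (SE), and by 0.05 with the mean of its transcript clusters on the array. Cry1 differed by -0.13 and Tef by -0.12.

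Genes of appetite-stimulating peptides and receptors were lower in 12 of 15 cases, beside 66% of all genes, with a median of -0.0946 and 0 genes at an unadjusted limma p under 0.05. Without TNF + IL-6 High replicate 2 the median was -0.0379. Npy, the peptide of hunger neurons in the arcuate nucleus, was at 8.15, 8.50, 8.52, 8.10 and 8.56 in TNF and at 8.87, 7.15, 8.10, 8.03, 8.26 and 8.38 on the TNF + IL-6 High arrays. Replicate 1 of TNF + IL-6 High was the highest of all and replicate 2 the lowest. Npy had a log2 difference of -0.23 ± 0.23 (SE), with an exact permutation p of 0.463, and it was -0.04 without TNF + IL-6 High replicate 2. Pdyn, Oprk1 and Penk, which encode an opioid peptide precursor, its receptor and enkephalin, differed by -0.25, -0.24 and -0.19. Penk was highest on TNF replicate 6, at 11.73, and differed by 0.04 without it.

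Appetite-suppressing peptides and receptors were divided, 10 higher and 12 lower. Pomc, the precursor of melanocortins, was at 6.02, 5.74, 5.96, 6.00 and 6.03 in TNF and at 6.58, 5.56, 6.80, 5.59, 5.46 and 6.44 on the TNF + IL-6 High arrays. Its values lay within a narrow range in TNF and on both sides of it in TNF + IL-6 High, and the difference of 0.12 ± 0.59 (SE) had an exact permutation p of 0.66. Pomc is also made in the pituitary. Bdnf differed by -0.18, Prlh, which encodes prolactin-releasing peptide, by 0.22 and Cckbr, a receptor of cholecystokinin, by -0.17. Among the other hypothalamic genes, Vip, a peptide of the suprachiasmatic nucleus, ranged from 6.13 to 6.70 in TNF and from 5.60 to 6.65 in TNF + IL-6 High, with a log2 difference of -0.37 ± 0.15 (SE). Of the 27 genes of that list 11 were higher and 16 lower. Vip was the 1 at an unadjusted limma p under 0.05, beside 1.07% of all genes higher and 3.03% lower.

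Serotonin synthesis, transport and breakdown genes were lower in 12 of 13 cases, beside 66% of all genes, with a median log2 difference of -0.203. The median was -0.0859 without TNF replicate 5 and -0.304 without TNF replicate 6. Tph2, the rate-limiting enzyme of serotonin synthesis in neurons, was at 4.95, 3.79, 4.33, 8.47 and 4.16 in TNF and at 5.04, 6.94, 3.73, 3.88, 4.08 and 4.18 on the TNF + IL-6 High arrays. Slc6a4, the serotonin transporter, was at 4.80, 4.18, 3.95, 8.58 and 4.44 and at 5.08, 6.53, 4.17, 4.62, 4.20 and 4.18. For both genes TNF replicate 5 was far above all other arrays, followed by TNF + IL-6 High replicate 2. The log2 difference was -0.50 ± 0.57 for Tph2 and -0.40 ± 0.54 for Slc6a4 (SE), with exact permutation p of 0.584 and 0.714. Without TNF replicate 5 they were 0.34 and 0.45. Tph2 and Slc6a4 are markers of raphe neurons, and 9 of 9 tested raphe markers were lower, with a median of -0.214 that was 0.00989 without TNF replicate 5. The mean of these markers was 6.66 on that array. In bulk tissue, fewer cells of a type and less RNA per cell cannot be told apart.

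Pts, which makes the cofactor of tryptophan hydroxylase, ranged from 6.79 to 7.44 in TNF and from 6.79 to 7.35 in TNF + IL-6 High. Its log2 difference was -0.20 ± 0.10 (SE). Pts was the 1 gene of this list at an unadjusted limma p under 0.05, beside 1.07% of all genes higher and 3.03% lower. Maoa and Maob, the oxidases that break down serotonin, differed by -0.16 ± 0.10 and -0.22 ± 0.12 (SE). Of 13 serotonin receptor genes 5 were higher and 8 lower, with a median of -0.0383, and Htr1d, Htr3a and Htr5a differed by 0.15, -0.21 and -0.12. In the kynurenine pathway, which also uses tryptophan, 3 genes were tested. Ido2 differed by 0.17, Haao by 0.08 and Qprt by -0.15. Dopamine genes were lower in 9 of 11 cases, beside 66% of all genes. Their median of -0.223 ranged from -0.263 to -0.151 with 1 array left out. Ddc, Slc18a2, Maoa and Maob, which were all lower, were counted both here and among the serotonin genes above.

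Markers of cells and of regions around the hypothalamus differed between arrays, several of them through 1 array, and 0 of them passed the adjusted threshold. Their part in the results above was not tested. Of all genes tested, 66% were lower and 34% higher in TNF + IL-6 High. Of 14 markers of midbrain dopaminergic neurons 12 were lower, with a median of -0.356, which was -0.204 without TNF replicate 5 and -0.477 without TNF replicate 6. Their mean ranged from 6.35 to 7.37 in TNF and from 6.02 to 7.34 in TNF + IL-6 High, with TNF replicate 5 and TNF + IL-6 High replicate 1 highest. Slc6a3, Chrna6, Nr4a2 and En1 belong to these markers. Cerebellar markers were lower in 16 of 17 cases with a median of -0.309. Their mean was 7.49 on TNF replicate 2, and without it the median was -0.00206. Striatal markers were lower in 7 of 8 cases with a median of -0.217, and 0.0718 without TNF replicate 6, where their mean was 8.28. Markers of cortex, hippocampus and thalamus had a median of -0.0653, and of hindbrain and spinal cord -0.109, with 5 and 2 genes higher and 9 and 3 lower. These medians were 0.0995 without TNF replicate 6 and 0.0377 without TNF replicate 5. Blood cell markers were lower in 5 of 6 cases with a median of -0.22, highest on TNF replicate 5, and -0.0261 without it. Anterior pituitary markers were higher in 6 of 9 cases with a median of 0.122, and their mean reached 6.41 on TNF + IL-6 High replicate 3, without which the median was 0.0129.

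Meningeal, endothelial and smooth muscle markers had the highest medians of the 33 lists. All 16 tested endothelial markers were above 0, between 0.0195 and 0.252, with a median of 0.185 beside -0.0383 over all genes, of which 34% were above 0. Their mean ranged from 6.57 to 7.15 in TNF and from 6.63 to 7.50 in TNF + IL-6 High, lowest on TNF replicate 2 and TNF + IL-6 High replicate 1. With 1 array left out the median was 0.0755 to 0.234, and 11 to 16 of the 16 markers were above 0. Esam, an adhesion molecule of endothelium, Kdr, the VEGF receptor 2, and Slc2a1, the glucose transporter of the blood-brain barrier, differed by 0.25, 0.25 and 0.22. Of 14 markers of smooth muscle cells and pericytes 12 were higher with a median of 0.14, among them Tagln by 0.33 and Pdgfrb and Notch3 by 0.14 each. Without TNF + IL-6 High replicate 2 that median was 0.0719. Of 24 markers of meningeal fibroblasts 20 were higher with a median of 0.226, and Igf2, Crabp2 and Fbln1 differed by 0.46, 0.27 and 0.23. Their mean ranged from 6.09 to 7.12 and from 6.30 to 7.23, so that the groups overlapped widely, and the median was 0.131 without TNF replicate 1. In these 3 lists 0 genes passed an unadjusted limma p of 0.05. Of the choroid plexus markers 7 of 10 were higher, with a median of 0.0558, and -0.0216 without TNF + IL-6 High replicate 2. Kcnj13, a channel of choroid plexus, differed by 0.46 ± 0.51 (SE), and Clic6 and Otx2 by -0.21 and -0.24.

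Glial lists had medians of -0.0651 to 0.00578, beside -0.0383 over all genes, of which 66% were lower. Oligodendrocyte markers had a median of 0.00578, astrocyte markers of -0.0252, tanycyte and ependymal markers of -0.0205 and markers of microglia and macrophages of -0.0651, with 9, 3, 5 and 3 genes higher and 4, 9, 8 and 12 lower. With 1 array left out the first 3 of these medians lay on both sides of 0, and the microglial median was -0.145 to -0.0314. Microglial Cx3cr1 and C1qc differed by -0.18 and -0.21 and Cd163, a marker of macrophages along vessels, by 0.16. Astrocytic S100b was at 9.51 on TNF replicate 5 and differed by -0.19, and by 0.02 without that array. The tanycyte enzyme Dio2, which activates thyroid hormone, differed by -0.26.

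**Figure D4:**
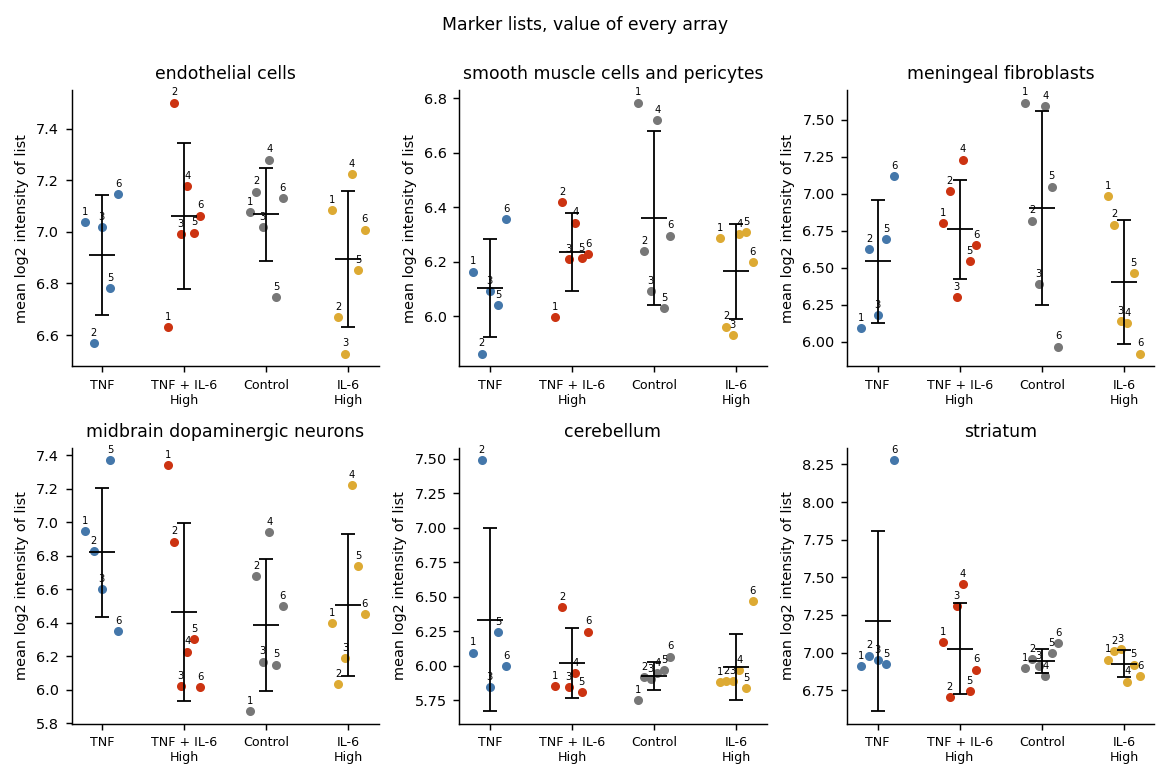
Mean log2 intensity over 6 marker lists (vertical axes) on every array of TNF, TNF + IL-6 High, Control and IL-6 High, labelled with the replicate number; the bars give mean and SD of 5 arrays in TNF and 6 in the others. TNF replicate 2 stands alone for cerebellum at 7.49 and TNF replicate 6 for striatum at 8.28.

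The same dose of IL-6 without TNFα was compared with Control, 6 arrays against 6, which share no array with the comparison above. In IL-6 High against Control, limma called 0 genes after adjustment (0%), with 102 higher (0.678%) and 210 lower (1.40%) at unadjusted p under 0.05. Both additions of IL-6 were set against each other across the 15049 genes, where genes do not count as replicates. Pearson's r of the differences was -0.184, and 43% of genes had the same sign. The interaction, the difference with TNFα minus that without, passed an adjusted limma p of 0.05 for 0 genes, with the smallest adjusted p at 0.961, and 194 genes were higher (1.29%) and 409 lower (2.72%) at unadjusted p under 0.05. Chrne differed by 0.26 with TNFα and by -0.17 without, Dab2, an endocytic adaptor, by 0.24 and -0.24, and Cep57, a centrosome protein, by -0.18 and 0.18. These were the genes of smallest interaction p, with interactions of 0.43, 0.48 and -0.36.

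Meningeal markers had the most opposed differences. Their median was 0.226 with TNFα and -0.54 without, where 0 of 24 were higher. Of the 24, 14 had an unadjusted limma interaction p under 0.05, beside 1.29% higher and 2.72% lower of all genes. The markers were read from the same arrays and do not count as replicates. Igf2 differed by -0.68 and Fbln1 by -0.40 in IL-6 High against Control. Endothelial markers had medians of 0.185 and -0.176, and smooth muscle and pericyte markers of 0.14 and -0.15. The Control arrays spread widely in these lists, as shown in the plot of marker lists, where Control replicates 1 and 4 were highest for meningeal fibroblasts. Control replicate 1 had the lowest median correlation with the other arrays among the 35, at 0.972. Control and IL-6 High arrays were not left out in turn, so the part of single arrays in the median of -0.54 was not tested. Midbrain dopaminergic markers had medians of -0.356 and 0.129, and serotonin genes of -0.203 and 0.0814. Piezo1 and Pla2g2d differed by -0.09 and -0.10 in IL-6 High against Control, Cebpe by 0.15 and Smn1 by -0.02. Socs3 differed by -0.13 and Socs1 by 0.18.

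**Figure D5:**
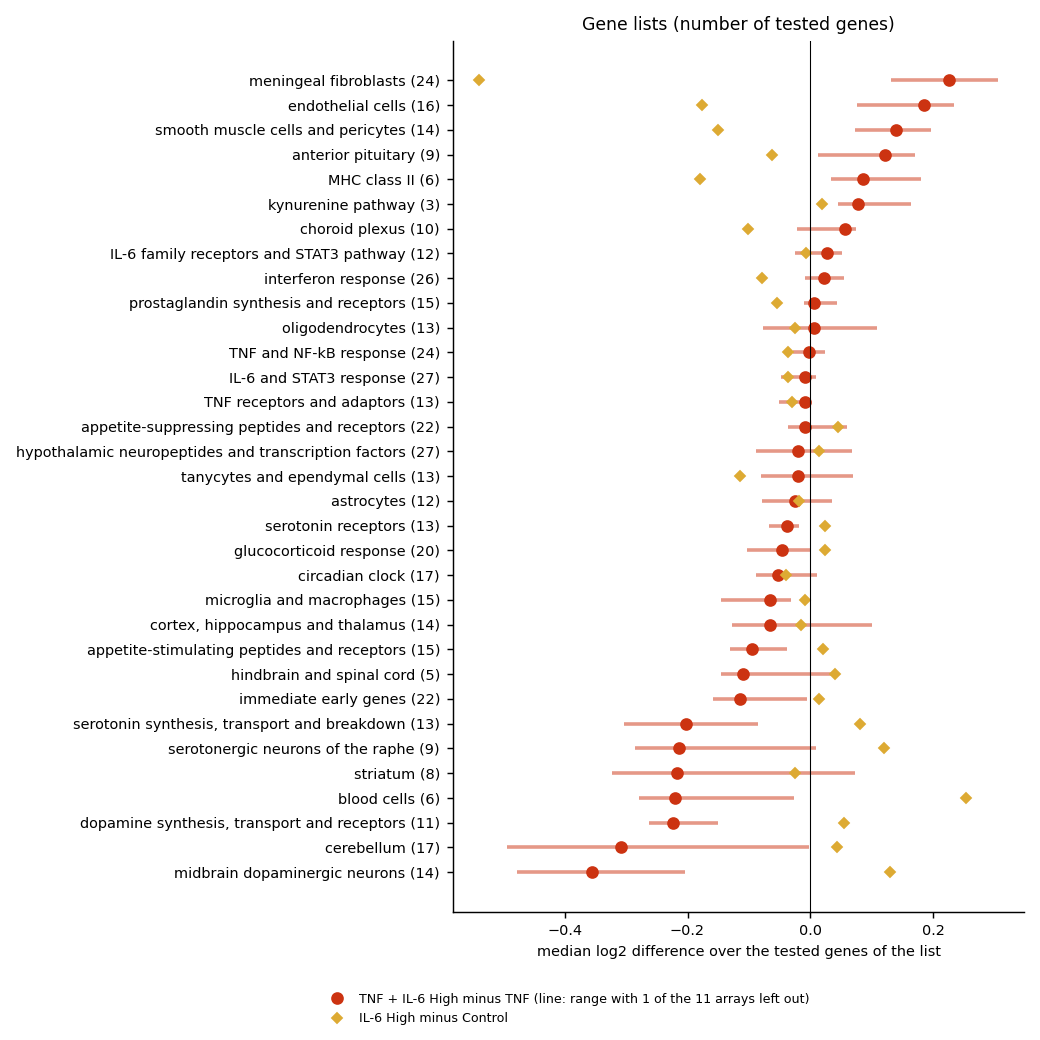
Median log2 difference (horizontal axis) over the tested genes of each list (vertical axis, number of genes in brackets) for TNF + IL-6 High minus TNF (circles) and IL-6 High minus Control (diamonds); the lines span the medians with 1 of the 11 arrays left out. Meningeal fibroblasts lie at 0.226 and -0.54, and the lines of cerebellum, striatum and raphe end near or past 0.

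The TNF + IL-6 Low group was compared with the same 5 TNF arrays, so its values are given side by side only. Limma called 0 genes after adjustment (0%), with the smallest adjusted p at 0.512, and at unadjusted p under 0.05, 358 genes were higher (2.38%) and 1053 lower (7%). With 50 pg IL-6 the log2 difference was 0.34 for Cebpe, 0.20 for Piezo1, 0.27 for Pla2g2d, 0.54 for Mirlet7a-2 and 0.49 for Mir204, beside 0.46, 0.30, 0.33, 0.80 and 0.83 with 800 pg. It was -0.31 for Smn1, -0.09 for Arpc5 and -0.04 for Ier3ip1, beside -0.34, -0.23 and -0.25. Usp18 differed by 0.20 beside 0.41, and Socs3 by 0.05 beside 0.15. The endothelial median was 0.121 and the meningeal median -0.128, beside 0.185 and 0.226.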

How the data were processed

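Hypothalamic RNA was measured on Affymetrix Mouse Gene 1.1 ST arrays. The deposited values, computed by the authors with RMA per the labels, are intensities on the log2 scale. The RMA version was not given. The study describes probes remapped to Entrez genes, which was not used here. Groups were taken from the sample labels. Of the 35556 transcript clusters, 21218 name 1 gene, 1881 several and 12457 none. For 1386 genes with several clusters, the cluster of highest mean was used, leaving 18820 genes. Genes were kept that had an intensity over 20 in 3 or more arrays, here of 35 (15049 genes). The study also set a minimum number of probes per gene, which was not used here. A linear model over 6 groups was fitted with limma 3.58.1 in R 4.3.3, with an intensity trend, with Benjamini-Hochberg adjustment over these genes. A two-sided exact permutation test was used for Tph2, Slc6a4, Npy, Pomc, Socs3 and Nfkbia.

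The 33 gene lists (443 of 521 genes tested; some genes are in several lists), the members and the tests were chosen with earlier results of these data known. No set test was made. The genes named are, after the exceptions below, the 12 of smallest p in each direction, up to 8 in each direction past a fold of 1.5, up to 3 of smallest p in each list, those of the permutation tests and the 3 of smallest interaction p. Predicted genes, chemoreceptors, antigen receptor segments, small RNAs and genes without a named role (numbered families such as Zfp, Fam and Tmem, and others such as Defb) were excepted, beside those stated as named after their values were seen. Pairing by replicate number was checked: the deviations of same-numbered arrays correlated at -0.201 to 0.232, with 2 of 5 over 0.1, so the numbers were not taken as pairs. Alternatives were other filters, normalizations, weights, blocks and sets of arrays. One gene named in the study is not reported here.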

Additional observations from a re-analysis of the deposited data

Results flagged for a closer look

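Of 264 groups of values of 132 named genes, 29 (11%) held an array far from the others of its group by Dixon's criterion, where chance gives about 1 in 20. TNF replicate 5 held 8 of these values, TNF + IL-6 High replicate 1 held 6, TNF replicate 6 held 5, TNF replicate 2 held 4, TNF + IL-6 High replicate 2 held 3, TNF replicate 3 held 2 and TNF + IL-6 High replicate 4 held 1.

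On TNF replicate 5, Tph2 (8.47), Slc6a4 (8.58), Slc17a8 (5.86), Sox10 (8.07), C1qc (7.63), S100a8 (5.52) and Tnip1 (6.95) were above the other TNF arrays in log2 intensity and Ciita (3.66) was below them. TNF replicate 6 was highest for Nr4a1 (8.12), Rarb (8.11), Neurod2 (6.21), Prl (6.27) and Htr1d (5.52). TNF replicate 2 was highest for Neurod1 (8.44), Cbln3 (8.57) and Cnpy1 (5.99) and lowest for Pomc (5.74). TNF replicate 3 was highest for Tns1 (8.77) and lowest for Smn1 (6.20). In TNF + IL-6 High, replicate 1 was lowest for Mirlet7a-2 (3.62), Dennd3 (5.47), Esam (5.72) and Tagln (5.10) and highest for Angptl4 (5.16) and Cbln1 (8.29). Replicate 2 was lowest for Tnf (3.83) and Haao (3.97) and highest for Ngp (5.28), and replicate 4 was highest for Baat (4.89).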

How the results depend on the processing

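After adjustment limma called 0 genes under each of 23 alternatives, and the smallest adjusted p was 0.125 to 1 over them. The counts at unadjusted p under 0.05 (161 higher, 456 lower), past a fold of 1.5 (7 and 6) and without overlap (9 and 22) moved as follows. With all 36 arrays they were 345 and 691, 656 and 76, and 1 and 8. A fit of the 2 groups alone gave 300 lower at unadjusted p. Without the filter on intensity 17 and 40 genes did not overlap. With a minimum of 50, 53 genes were higher at unadjusted p and 2 did not overlap in that direction, and 88.2% of those at unadjusted p were lower. Median centring gave 418 higher and 185 lower at unadjusted p and 20 and 10 without overlap. Array weights gave 394 and 1208 at unadjusted p and 16 and 17 past the fold. Without TNF + IL-6 High replicates 5 and 6 together, the counts were 95 and 182 at unadjusted p, 11 higher past the fold, and 30 and 54 without overlap. The cause was not tested, except that fewer arrays in a group make overlap rarer by construction.

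With 1 of the 11 arrays left out, the number higher at unadjusted p was 103 (TNF replicate 2 left out) to 296 (TNF replicate 6 left out), and 265 without TNF + IL-6 High replicate 1. The number lower was 222 (without TNF + IL-6 High replicate 5) to 960 (without its replicate 1), and 896, 779 and 713 without TNF replicate 3, TNF replicate 6 and TNF + IL-6 High replicate 2. Past the fold, 6 to 17 genes were higher, the most when TNF replicate 6 was left out and 11 without TNF replicate 3. The number lower past the fold was 5 to 17, 17 when TNF + IL-6 High replicate 2 was left out, 15 and 14 for TNF replicates 6 and 3 and 10 for TNF + IL-6 High replicate 1. Without overlap, 15 to 42 genes were higher and 26 to 149 lower, the most without TNF + IL-6 High replicate 1.

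The replicate numbers did not pair the arrays. With the replicate block, 165 genes were higher and 436 lower at unadjusted p and 0 after adjustment, and 7 and 6 passed the fold. Of 5 pairs of same-numbered arrays, none correlated best with its own number.

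Of 2995 log2 differences of 132 named genes under the alternatives, 2939 kept their direction. With all 36 arrays the differences reversed to -0.064 (Chrne), -0.13 (Umod), 0.33 (Ier3ip1), 0.35 (Dnajc7), 0.36 (Arpc5), 0.44 (Jak1), 0.23 (Ptpn11), -0.091 (Hp), -0.16 (Socs3), -0.011 (Tnfrsf1b), 0.037 (Tnip1), -0.054 (Rel), -0.067 (H2-Eb1), -0.19 (Ciita), 0.24 (Nr1d2), 0.16 (Cry1), 0.19 (Tef), 0.014 (Oprk1), 0.60 (Penk), 0.035 (Pts), 0.20 (Maob), 0.075 (Maoa), -0.36 (Haao), 0.62 (Slc1a2), 0.45 (S100b), 0.084 (Cx3cr1), -0.20 (Cd163), 0.13 (C1qc), 0.088 (Sox10), -0.062 (Tagln), -0.31 (Hoxd4), 0.11 (Tac1), 0.21 (Rgs9), 0.14 (Npy), -0.094 (Pomc) and 0.0898 (Cep57). Array weights reversed Penk (0.054) and Mag (-0.005999), the mean of a gene's clusters Nr1d2 (0.052), and leaving out TNF + IL-6 High replicates 5 and 6 Sox10 (0.066) and Hoxd4 (-0.052). Reversals with 1 array left out are given with the other end of the range over the 11 arrays. Leaving out TNF replicate 2 reversed Cbln3 (-0.88 to 0.22) and Opalin (-0.012 to 0.19). Leaving out TNF replicate 5 reversed Ciita (-0.017 to 0.12), S100b (-0.31 to 0.018), Sox10 (-0.19 to 0.077), Slc17a8 (-0.31 to 0.0499), S100a8 (-0.40 to 0.069), Tph2 (-0.96 to 0.34) and Slc6a4 (-0.74 to 0.45). Leaving out TNF replicate 6 reversed Penk (-0.30 to 0.041), Rarb (-0.33 to 0.059) and Rgs9 (-0.38 to 0.024). Leaving out TNF + IL-6 High replicate 2 reversed Mag (-0.056 to 0.28) and Opalin (-0.01022), and its replicate 3 Pomc (-0.022 to 0.24). Of 758 medians of gene lists, 747 moved by less than the spread between replicates, and the other 11 were all from the set of 36 arrays.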
